A study of Mus musculus with 6 samples.

Results

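Notch receptors, their ligands and the Hes/Hey genes they switch on were followed in RNA libraries of cells labelled oligodendrocyte progenitor cells (OPCs), the glial precursors of myelin-forming oligodendrocytes. The members were taken by name, with no threshold on their values: Notch1, Notch2, Notch3, Jag1, Dll1, Hes1, Hes5, Hey1, Hey2 and Heyl. All 10 were found among the 34250 rows of the deposited table. There were 3 libraries labelled as fibrinogen-treated, fibrinogen being the plasma protein that enters the brain when the blood–brain barrier leaks, and 3 labelled as controls. Both groups were labelled wild type, C57BL/6 and brain, without an age. The columns carry the word mouse with a number and a fibrinogen amount of 2.5 mg, whereas the study's methods describe cultures made from the cortices of newborn pups, with vehicle as the control. No label says that replicates are separate animals or cultures. The p-values therefore reflect how far these 6 libraries scatter, and that scatter may be technical.

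Notch receptors sit on the cell surface and are engaged by Delta-like or Jagged ligands on a neighbouring cell. Engagement lets proteases release the intracellular part of the receptor, which enters the nucleus, joins the DNA-binding protein Rbpj and turns on the Hes and Hey genes. These encode basic helix-loop-helix repressors that hold down differentiation genes, and in OPCs signalling from Jag1 through Notch1 is known for delaying maturation.

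Levels are given as RPKM, reads scaled by exon length and by the reads assigned to genes in each library, which allows genes of unequal length to be compared. Each library held 36670999 to 44448983 assigned reads. Along the leading principal component (51.4% of the variance) fibrinogen and control libraries lay apart, and along the next one (22.6%) control replicate 3 lay away from control replicates 1 and 2. The OPC label was checked against marker genes. The summed level of 10 OPC markers was 72.3 to 74.7 RPKM with fibrinogen and 49.2 to 50.4 RPKM in controls, while 10 neuron markers summed to 1315 to 1628 RPKM with fibrinogen and 1322 to 1501 RPKM in controls. Olig2, a transcription factor of the oligodendrocyte lineage, averaged 6.19 RPKM with fibrinogen and 3.10 RPKM in controls. The neuronal gene Rbfox3 averaged 48.5 RPKM with fibrinogen and 60.7 RPKM in controls. Cspg4, which encodes the OPC proteoglycan NG2, stayed under 1 RPKM in all 6 libraries and was the lowest of the 10 OPC markers. Other OPC markers were well above it. Cspg5 averaged 25.4 RPKM with fibrinogen and 16.6 RPKM in controls, and Gpr17 13.0 RPKM with fibrinogen and 7.05 RPKM in controls. Sox10 averaged 7.22 RPKM in controls and lay higher in every fibrinogen library than in any control. Slc17a7, a vesicular glutamate transporter gene of excitatory neurons, averaged 65.6 RPKM with fibrinogen and 73.0 RPKM in controls, against 6.29 RPKM with fibrinogen and 6.85 RPKM in controls for Pdgfra, the defining receptor of OPCs. Other neuron markers were higher with fibrinogen, such as Tubb3 (68.9 RPKM, 47.9 RPKM in controls) and Stmn2 (47.5 RPKM, 34.3 RPKM in controls). Over the 10 neuron markers the change was positive for 5 and negative for 5. The summed neuron markers were thus well above the summed OPC markers in every library, which goes against the label. In such bulk RNA, fewer cells of a type and less RNA per cell cannot be told apart.

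Hes1 was the one member that passed the test for a change with fibrinogen. It averaged 2.61 RPKM ± 0.113 with fibrinogen and 4.50 RPKM ± 0.467 in controls (SD, n = 3 each), 0.580 times the control level. The 3 receptors, both ligands and the other Hes/Hey genes did not pass the test. Of the 10 members 8 reached the minimum level for testing, at least 1 RPKM in at least 3 libraries, and Hey2 and Heyl did not. Among the 8, 1 fell and 0 rose (limma, adjusted p under 0.05), where 11.5% of all 14710 tested genes passed in either direction, 5.87% higher and 5.62% lower, so 1 of 8 members is close to the share among all genes. At an unadjusted p under 0.05 the counts were also 1 lower and 0 higher, where 2211 of all 14710 tested genes were lower and 2118 higher. Limma-voom, a second test run on reads recovered from the RPKM values, gave the same 2 counts, where it called 13.9% of all tested genes. The median log2 change of the 8 was 0.051, against -0.0077 over all tested genes.

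**Figure D1:**
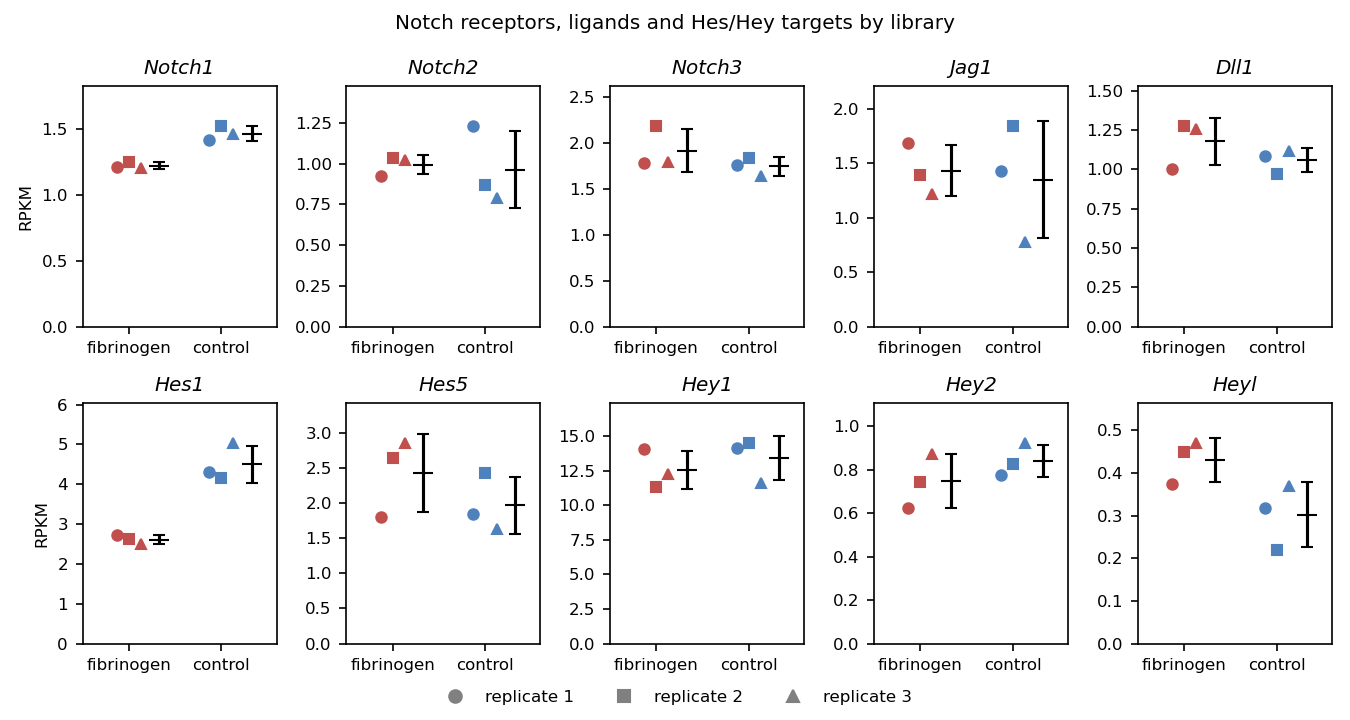
RPKM of each Notch receptor, ligand and Hes/Hey target in the 3 fibrinogen libraries (red, left) and 3 control libraries (blue, right), with marker shapes for replicate numbers and black bars for the mean ± SD. Hes1 lies between 2.49 and 2.72 RPKM with fibrinogen and between 4.16 and 5.03 RPKM in controls, and the groups also lie apart for Notch1 (lower with fibrinogen) and narrowly for Heyl (higher with fibrinogen). Among all tested genes the groups lie apart, in either direction, for 35.1%.

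The members differed widely in abundance. Hey1, a repressor gene of the Hes-related family, was the most abundant in every library, at a mean of 13.0 RPKM over the 6 libraries. It was followed by Hes1 (3.55 RPKM), Hes5 (2.20 RPKM), Notch3 (1.83 RPKM), Jag1 (1.39 RPKM), Notch1 (1.34 RPKM), Dll1 (1.12 RPKM), Notch2 (0.978 RPKM), Hey2 (0.794 RPKM) and Heyl (0.367 RPKM). Only at both ends of this order were neighbours apart, Hey1 from Hes1 and Hey2 from Heyl, in the sense that the ranges over the 6 libraries did not meet. The 7 neighbouring pairs from Hes1 down to Hey2 overlapped and kept this order in 4 or 5 of the 6 libraries. Hes1 was above Hes5 in 4 libraries of 6. Of the summed RPKM of the 5 Hes/Hey genes, Hes1 made up 13.1% to 14.7% in fibrinogen libraries and 18.8% to 25.7% in control libraries, and Hey1 63.7% to 71.8% with fibrinogen and 59.4% to 66.2% in controls.

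Among the receptors, Notch1 (chromosome 2, 26457903 to 26516663, minus strand, GRCm38) did not pass the test. Its level was 1.21, 1.25 and 1.20 RPKM in fibrinogen replicates 1 to 3, against 1.41, 1.52 and 1.46 RPKM in control replicates 1 to 3, from 632 to 886 reads per library. Every fibrinogen library was below every control, as for 35.1% of tested genes in one direction or the other and 17.7% in this one. The log2 change was -0.15 ± 0.085 (SE, limma adjusted p = 0.291; 95% interval -0.35 to 0.051), and limma-voom gave -0.26 ± 0.094 (adjusted p = 0.0990). Each log2 change is the fibrinogen mean less the control mean of log2(RPKM + 1). Adding 1 makes the change of low genes look smaller than it is, and limma-voom adds no such offset. On the minus strand the Notch1 row starts at 26516663, upstream of the RefSeq start at 26503822, so it also counts exon bases that RefSeq does not assign to Notch1. The Notch1 row shares 1068 exon bases with 0610009E02Rik and 414 with Gm13568, both on the opposite strand. The means of 0610009E02Rik were 0.644 RPKM with fibrinogen and 0.836 RPKM in controls, and those of Gm13568 0.389 RPKM with fibrinogen and 0.769 RPKM in controls. The study's methods describe stranded library preparation, but no source used here gives the strand option of the read counting. Whether reads of Notch1 and of these antisense genes were kept apart is unknown.

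Notch2 and Notch3 gave no difference beyond the spread. Notch2 (chromosome 3, 98013527 to 98150361, plus strand) was at 0.926 to 1.03 RPKM with fibrinogen, within the wider control range of 0.790 to 1.23 RPKM, with a log2 change of 0.029 (limma adjusted p = 0.897; 95% interval -0.24 to 0.30) whose sign turned without control replicate 2 or 3 and with array weights. Notch3 (chromosome 17, 32120820 to 32166880, minus strand), the receptor best known from pericytes and vascular smooth muscle, ranged over 1.78 to 2.19 RPKM in fibrinogen libraries and 1.64 to 1.84 RPKM in controls (log2 change 0.086, limma adjusted p = 0.590; 95% interval -0.14 to 0.31). The Notch3 row shares 488 exon bases with the antisense Gm17276, and Notch2 shares 541 with Gm42820 on its own strand. The 3 receptors together summed to 3.92, 4.47 and 4.01 RPKM in fibrinogen replicates 1 to 3 and 4.40, 4.23 and 3.89 RPKM in control replicates 1 to 3, so the receptor total overlapped between the groups.

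Both ligands were low and did not differ beyond the spread. Jag1 (chromosome 2, 137081456 to 137116644, minus strand) had 1.68, 1.39 and 1.22 RPKM in fibrinogen replicates 1 to 3, against 1.43, 1.84 and 0.775 RPKM in control replicates 1 to 3. The controls alone spanned more than the whole fibrinogen group, with control replicate 3 the lowest of the 6 libraries at 193 reads. The log2 change was 0.073 ± 0.18 (SE, limma adjusted p = 0.822; 95% interval -0.35 to 0.50), and its sign turned without control replicate 3 (-0.12, adjusted p = 0.573) or fibrinogen replicate 1 (-0.00015). Dll1 (chromosome 17, 15367354 to 15376872, minus strand), a Delta-like ligand of neural progenitors, averaged 1.18 RPKM ± 0.152 with fibrinogen and 1.06 RPKM ± 0.0757 in controls (SD, n = 3 each; log2 change 0.080, limma adjusted p = 0.636; 95% interval -0.16 to 0.32). Its row shares 867 exon bases with the antisense A930024N18Rik.

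Hes1 (chromosome 16, 30064384 to 30067796, plus strand), the repressor that maintains neural progenitors, was measured at 2.72, 2.62 and 2.49 RPKM in fibrinogen replicates 1 to 3. Control replicates 1 to 3 had 4.30, 4.16 and 5.03 RPKM. The highest fibrinogen library was thus well below the lowest control. Groups lay apart in this direction for 17.7% of tested genes. Control replicate 3, the library that stands apart in the second component, had the highest Hes1 of all. These levels rest on 203 to 237 reads in fibrinogen libraries and 331 to 438 reads in controls. The log2 change was -0.60 ± 0.090 (SE, n = 3 each, limma adjusted p = 0.0106; 95% interval -0.82 to -0.39), lower in 3 of 3 fibrinogen libraries. On recovered reads limma-voom gave a log2 change of -0.79 ± 0.14 (adjusted p = 0.00918), which is 0.580 times the control level. Without control replicate 3 the change was -0.54 (limma adjusted p = 0.0124), and the call held in all 15 alternatives in which Hes1 was tested, with adjusted p between 0.00265 and 0.0478. No other row of the table overlaps Hes1. Its row starts at 30064384, upstream of the RefSeq start at 30065357, so it also counts exons that RefSeq does not assign to Hes1.

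**Figure D2:**
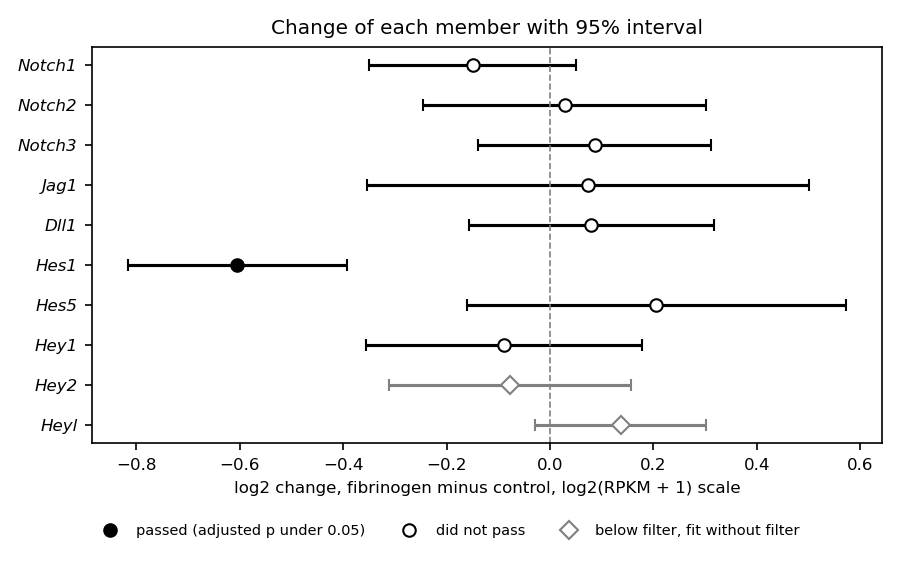
Log2 change of each member, fibrinogen less control in log2(RPKM + 1), with 95% intervals from limma. Hes1 at -0.60 is the one filled point, the intervals of the other 7 tested members cross 0, and grey diamonds mark Hey2 and Heyl, which were fitted without the filter on low values.

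Hes5 and Hey1, the other tested targets, did not pass the test. Hes5 (chromosome 4, 154960923 to 154962371, plus strand), the effector of Notch in neural stem cells that is also known for repressing myelin genes in OPCs, had 1.80, 2.64 and 2.85 RPKM in fibrinogen replicates 1 to 3, against 1.84, 2.42 and 1.63 RPKM in control replicates 1 to 3. Fibrinogen replicate 1 was within the control range and the other two were above it. The log2 change was 0.21 ± 0.16 (SE, limma adjusted p = 0.425; 95% interval -0.16 to 0.57), and with 90 to 160 reads per library Hes5 was among the least deeply counted members. Its row shares 433 exon bases with the antisense Gm20421 (3.26 RPKM with fibrinogen, 2.79 RPKM in controls). Hey1 (chromosome 3, 8663359 to 8667256, minus strand) had 14.1, 11.3 and 12.3 RPKM in fibrinogen replicates 1 to 3 and 14.2, 14.5 and 11.6 RPKM in control replicates 1 to 3. The groups overlapped, on 1622 to 1848 reads per library, and the log2 change was -0.089 ± 0.11 (limma adjusted p = 0.643; 95% interval -0.36 to 0.18).

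Hey2 and Heyl were under the filter on low values and were fitted without it, where 2.89% of 32364 genes passed. Hey2 (chromosome 10, 30832359 to 30842801, minus strand), known from developing arteries and heart, ranged over 0.623 to 0.872 RPKM in fibrinogen libraries and 0.774 to 0.922 RPKM in controls (log2 change -0.077, limma adjusted p = 0.699). Heyl (chromosome 4, 123233556 to 123249875, plus strand), the lowest member, had 0.373, 0.449 and 0.470 RPKM in fibrinogen replicates 1 to 3 and 0.317, 0.220 and 0.371 RPKM in control replicates 1 to 3. All 3 fibrinogen libraries were above all controls, but fibrinogen replicate 1 and control replicate 3 nearly touched. Among the genes that reached the filter, 17.4% were apart in this direction. The log2 change was 0.14 ± 0.068 (SE, limma adjusted p = 0.354; 95% interval -0.029 to 0.30), and on its 44 to 102 reads per library limma-voom gave 0.53 ± 0.28 (adjusted p = 0.328).

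Whether Hes1 moved apart from the other tested targets was asked with the difference between log2(RPKM + 1) of Hes1 and that of the other gene within each library. Hes1 minus Hes5 averaged 0.086 ± 0.29 with fibrinogen and 0.90 ± 0.30 in controls (SD, n = 3 each), a shift of -0.81 (exact permutation test, two-sided, p = 0.1). For Hes1 minus Hey1 the means were -1.90 ± 0.13 with fibrinogen and -1.39 ± 0.28 in controls, a shift of -0.52 (exact permutation test, two-sided, p = 0.1). The groups did not overlap for either of the 2 pairs, and how often other gene pairs lie apart was not computed. Hes1 was the one member called from these same libraries, so the shifts are no separate support for its change. With 3 libraries against 3 the test cannot give a p below 0.1, also after adjustment over the 2 pairs, so these shifts are sizes that this design cannot call.

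Promoter sequence was looked at because Notch acts on Hes and Hey genes through Rbpj sites near their start. RefSeq windows on GRCm38.p6, 250 bases before to 50 after the start, were at hand for 7 of the 10 members (8 windows, Dll1 having 2), with no entry for Hes1, Hey1 and Heyl. The Rbpj core TGGGAA was searched on both strands and occurs in 25.6% of all 32851 windows of this length, 2 or more times in 3.79%. It occurred 2 times each in the windows of Hes5 and Hey2 and was not found in those of Notch1, Notch2, Notch3, Jag1 and Dll1. In all 4 cases it was part of the longer GTGGGAA, which overlaps the core by construction and occurs in 6.38% of windows. The 4 matches are shown because they are the Rbpj core matches found near member starts, 5′ to 3′ on the strand of the gene with the core in capitals, and positions count from the transcript start.
Hes5, position -226, chr4:154960685-154960714, plus strand: agggcgagcgcgTTCCCAcagcccggacat
Hes5, position -82, chr4:154960829-154960858, plus strand: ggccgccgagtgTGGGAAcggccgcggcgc
Hey2, position -207, chr10:30842973-30843002, minus strand: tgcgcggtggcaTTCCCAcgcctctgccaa
Hey2, position -3, chr10:30842769-30842798, minus strand: tgggctgcagcgTGGGAAagaacctccagg
The N box CACNAG, to which Hes proteins bind, was found 3 times in the Notch1 window, 2 times in that of Notch3, and 1 time each in that of Notch2 and one of the Dll1 windows, against 42.5% of all windows with at least 1 match and 11.3% with at least 2. These matches describe the letters of the windows. The Hes5 positions count from a start at 154960923. RefSeq places the start of the Hes5 gene at 154960626, so both Hes5 matches lie downstream of that earlier start. Hes5 and Hey2, which carry the Rbpj core, had log2 changes of 0.21 and -0.077, neither past the test.

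Rows whose pattern over the 6 libraries was most like that of Hes1 were sought by the root mean square difference between centred log2(RPKM + 1) profiles, among 6544 named rows with a mean of at least 5 RPKM. They were Pitpnm2 (0.029), Sun2 (0.043), Ptk2b (0.052), Dcaf8 (0.072) and Dapk1 (0.079). For Hes5 the 5 nearest rows, Sez6, Fads2, Tmem130, Ccdc107 and Celf6, lay at 0.077 to 0.097. The nearest of them, Sez6, was slightly closer to Hes5 than Dapk1 was to Hes1. Such nearness among 6544 rows over 6 libraries describes the profiles alone.

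Of the other genes of the Notch pathway few passed the test. Over 7 lists that hold 64 measured genes, 52 were tested, 0 rose and 5 fell, which is 9.62% against 11.5% of all tested genes, and the median log2 change was -0.045. At an unadjusted p under 0.05, 6 were higher and 10 lower, where 2118 of all 14710 tested genes were higher and 2211 lower. Limma-voom called 1 higher and 5 lower, where it called 13.9% of all tested genes. The 5 that fell were Lfng, Furin, Crebbp, Bhlhe40 and Tle3.

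Lfng (lunatic fringe), a glycosyltransferase that modifies Notch receptors and so shifts their response from Jagged to Delta-like ligands, showed the same kind of separation as Hes1. It had 2.66, 2.76 and 2.98 RPKM in fibrinogen replicates 1 to 3, against 4.44, 5.77 and 5.75 RPKM in control replicates 1 to 3. Every fibrinogen library was below every control, as for 17.7% of tested genes. The log2 change of Lfng was -0.73 ± 0.11 (SE, limma adjusted p = 0.0107), and it was called in all 15 alternatives. The other 3 tested genes of receptor glycosylation, Pofut1, Poglut1 and Rfng, did not pass. Bhlhe40, a repressor related to the Hes family and known from the circadian clock, averaged 11.2 RPKM ± 1.30 with fibrinogen and 19.0 RPKM ± 4.23 in controls (SD, n = 3 each; log2 change -0.70, limma adjusted p = 0.0345). Its groups did not overlap, as for 17.7% of tested genes in this direction. Tle3, a Groucho corepressor that Hes proteins recruit, averaged 3.61 RPKM with fibrinogen and 4.67 RPKM in controls (log2 change -0.30, limma adjusted p = 0.0466). Crebbp, a histone acetyltransferase of the Notch transcription complex, averaged 6.47 RPKM with fibrinogen and 8.34 RPKM in controls (log2 change -0.32, limma adjusted p = 0.0334), and Furin, the protease that cuts the receptor precursor, 0.957 RPKM with fibrinogen and 1.51 RPKM in controls (log2 change -0.36, limma adjusted p = 0.0484). These 4 calls were less stable: Bhlhe40 and Crebbp each lost theirs in 7 of 16 alternatives, Tle3 in 10 of 15 and Furin in 11 of 15. With 1 library left out, the adjusted p reached 0.114 for Bhlhe40, 0.125 for Crebbp, 0.163 for Tle3 and 0.146 for Furin.

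**Figure D3:**
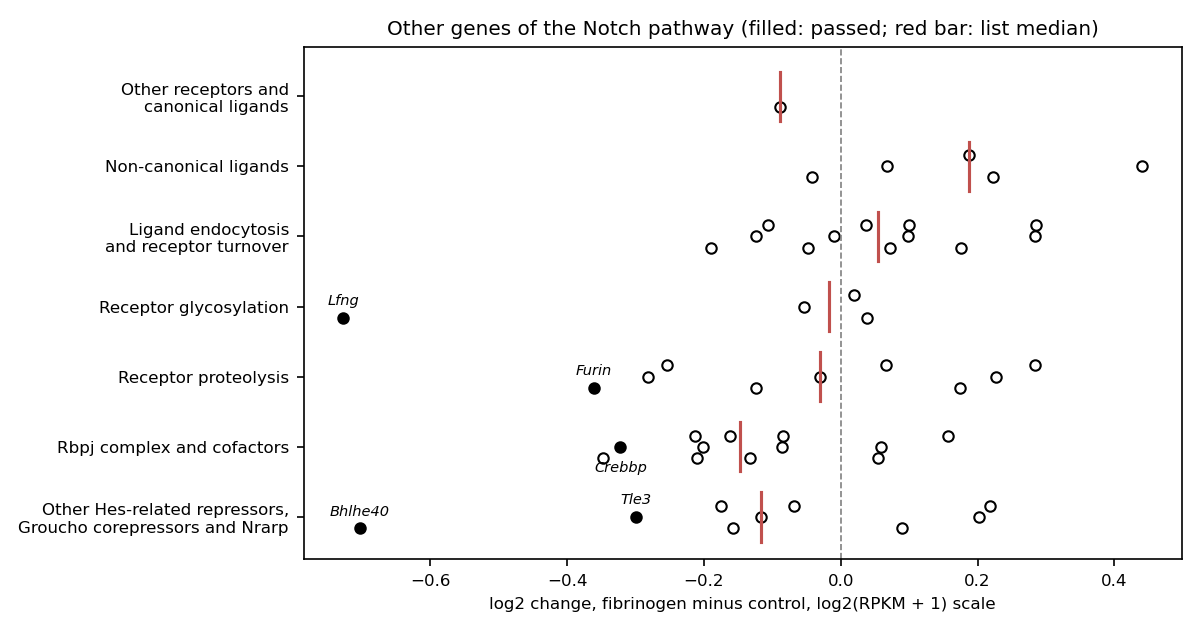
Log2 change, fibrinogen less control in log2(RPKM + 1), of the 52 tested genes in 7 lists of the Notch pathway, 1 point a gene. The 5 filled points passed the test, all below 0, and red bars give the median of each list.

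No other pathway gene passed the limma test. By limma-voom, 1 more tested gene was called, Cntn6, a contactin that acts as a Notch ligand, which averaged 2.25 RPKM with fibrinogen and 1.41 RPKM in controls (limma-voom adjusted p = 0.0235, limma adjusted p = 0.0531). Fitted without the filter, Notch4, an endothelial receptor, averaged 0.413 RPKM with fibrinogen and 0.714 RPKM in controls (limma-voom adjusted p = 0.0411, limma adjusted p = 0.138). Rbpj itself averaged 1.89 RPKM with fibrinogen and 2.06 RPKM in controls (log2 change -0.084, limma adjusted p = 0.540). Of the 12 tested genes of its complex and cofactors 9 had a negative and 3 a positive change, with a median of -0.15. Over all 14710 tested genes 7537 changes were negative, with a median of -0.0077. Of the 12, 1 passed (8.33%, against 11.5% of all tested genes). Of the receptor proteases, Adam10 and the gamma-secretase subunits did not pass. Among the 12 tested genes of ligand endocytosis and receptor turnover the most abundant were Fbxw7, a ubiquitin ligase subunit that marks the Notch intracellular domain for breakdown (29.3 RPKM with fibrinogen, 23.8 RPKM in controls; limma adjusted p = 0.0765), and Dtx3 (25.5 RPKM with fibrinogen, 24.2 RPKM in controls; limma adjusted p = 0.668). Of the non-canonical ligands Cntn1 (24.3 RPKM with fibrinogen, 21.2 RPKM in controls; limma adjusted p = 0.213) and Dner (5.09 RPKM with fibrinogen, 5.28 RPKM in controls; limma adjusted p = 0.863) had the highest means over the 6 libraries, with Dlk2 close to Dner (5.66 RPKM with fibrinogen, 4.69 RPKM in controls; limma adjusted p = 0.331). Jag2, averaging 6.32 RPKM in fibrinogen libraries and 6.76 RPKM in controls (limma adjusted p = 0.620), was above Jag1 and Dll1 in every library. Dll4, an endothelial ligand under the filter, had 0.432, 0.409 and 0.429 RPKM in fibrinogen replicates 1 to 3 and 0.679, 0.691 and 1.26 RPKM in control replicates 1 to 3 (fitted without the filter, log2 change -0.38, limma adjusted p = 0.195, and -0.24 without control replicate 3).

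Markers of several cell types moved between the groups as well, and their part in the fall of Hes1 was not tested. Of the OPC markers summed above, 6 of 9 tested rose and 0 fell, with a median log2 change of 0.59. Over all tested genes 5.87% were called higher and 5.62% lower. The 10 astrocyte markers summed to 448 to 488 RPKM with fibrinogen and 524 to 619 RPKM in controls, with 1 higher and 3 lower by the test, while 5 of the 10 changes were positive and 5 negative. Gfap, the astrocyte filament gene, ranged over 32.3 to 42.6 RPKM in fibrinogen libraries and 75.7 to 222 RPKM in controls (limma adjusted p = 0.0503). Without Gfap the astrocyte sums overlapped, at 407 to 446 RPKM with fibrinogen and 397 to 450 RPKM in controls. Slc1a2 made up the largest part of them (142 RPKM with fibrinogen, 129 RPKM in controls). Aqp4, the astrocyte water channel gene, rose (26.8 RPKM with fibrinogen, 16.7 RPKM in controls, limma adjusted p = 0.0116). Agt (1.26 RPKM with fibrinogen, 7.83 RPKM in controls), Gjb6 (6.53 and 12.8 RPKM) and Aldoc (82.9 and 114 RPKM) lay lower in every fibrinogen library than in any control. Groups of the 10 astrocyte markers lay apart as lower for 5 and as higher for 2, against 17.7% and 17.4% of all tested genes. The 10 microglia markers summed to 91.0 to 102 RPKM with fibrinogen and 136 to 149 RPKM in controls (1 higher, 4 lower), again with 5 positive and 5 negative changes. The complement genes C1qa, C1qb and C1qc and the protease gene Ctss were the 4 that fell. The microglial chemokine receptor gene Cx3cr1 rose (15.2 RPKM with fibrinogen, 7.53 RPKM in controls; limma adjusted p = 0.00873). Tmem119, Aif1 and P2ry12, also microglial, lay higher in every fibrinogen library than in any control without passing (limma adjusted p = 0.0556, 0.0518 and 0.305). Groups lay apart in this direction for 17.4% of tested genes. The 10 oligodendrocyte markers summed to 199 to 323 RPKM with fibrinogen and 166 to 260 RPKM in controls, with a median log2 change of 0.51, and 4 rose and 0 fell. Those 4 were Opalin (7.92 RPKM with fibrinogen, 2.46 RPKM in controls), Ugt8a (2.74 RPKM with fibrinogen, 0.917 RPKM in controls), Ermn (29.5 RPKM with fibrinogen, 15.0 RPKM in controls) and Mag (12.4 RPKM with fibrinogen, 6.94 RPKM in controls), all genes of myelinating oligodendrocytes. Of the 10 neuron markers summed above, 1 rose and 0 fell, with 5 positive and 5 negative changes. The 9 markers of neural stem cells and radial glia summed to 138 to 144 RPKM with fibrinogen and 116 to 122 RPKM in controls (2 higher, 0 lower). The 10 mural cell markers summed to 64.1 to 88.4 RPKM with fibrinogen and 37.0 to 53.2 RPKM in controls (2 of 8 tested higher, 0 lower), and Pdgfrb, the pericyte receptor, averaged 2.43 RPKM in fibrinogen libraries and 2.33 RPKM in controls. The 10 endothelial markers overlapped, at 33.5 to 40.1 RPKM with fibrinogen and 37.0 to 49.6 RPKM in controls (1 higher, 1 lower), and Pecam1 averaged 2.90 RPKM in fibrinogen libraries and 4.19 RPKM in controls (limma adjusted p = 0.0653). No marker of these lists was at 0 in all libraries.

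**Figure D4:**
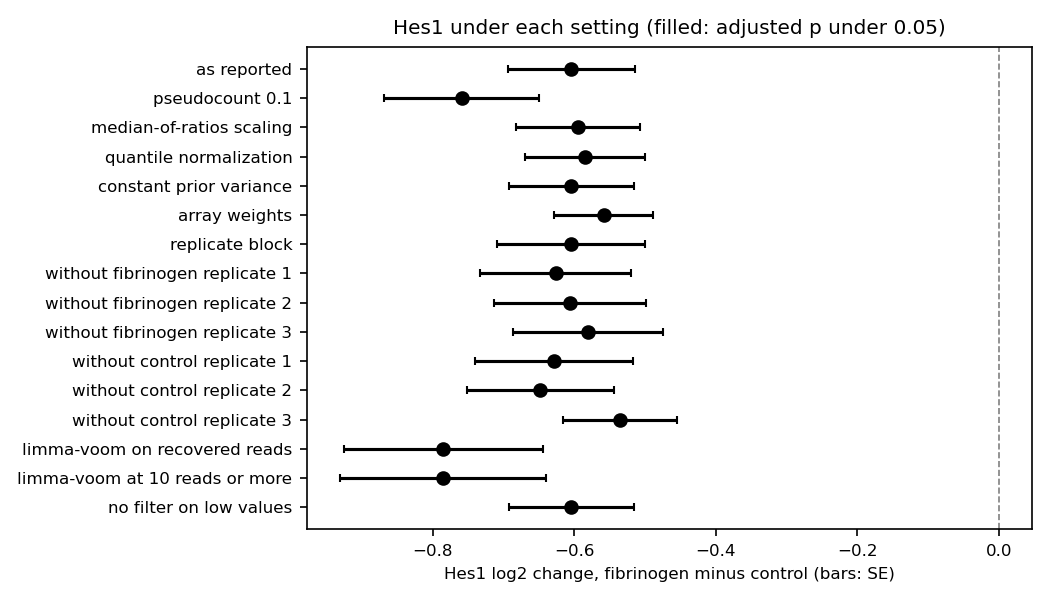
Log2 change of Hes1, fibrinogen minus control, as reported and under 15 other settings, with SE bars and filled points for an adjusted p under 0.05. The values lie between -0.79 and -0.54 and every point is filled, and both limma-voom values are on a log2 scale of scaled reads without the added 1 RPKM.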

How the data were processed

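RNA was sequenced from 3 fibrinogen and 3 control libraries, grouped by their titles. The authors deposited RPKM values. Per the labels' processing notes they used Trimmomatic 0.39, STAR 2.7.6a and featureCounts 1.5.1 with GRCm38; the methods name a later build and another STAR release. Gene ends lay within 10 bases of RefSeq GRCm38.p6 for 49.8% of 25667 shared symbols and of GRCm39 for 1.84% of 29810, so coordinates are GRCm38. The treatment of multi-mapping reads is not given in the sources used here. Deposited lengths gave back whole reads for 100% of RPKM values (tolerance 0.001 reads).

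Limma 3.58.1 (R 4.3.3) was fitted to log2(RPKM + 1) of all 14710 genes at 1 RPKM or more in at least 3 libraries (36670999 to 44448983 reads each), with a trended prior, two-sided, Benjamini-Hochberg adjusted, threshold 0.05. Limma-voom used recovered reads. Alternatives were another pseudocount, filters, scalings, priors, array weights, a replicate block and each library left out. On simulated data the fit recovered 35.4% of 1.5-fold, 81.8% of 2-fold and 92.2% of 3-fold changes, so small changes can be missed. The simulation held far fewer changes, with 145 calls among 14706 genes against 1689 in the data. Its recovery rates therefore need not be those of the real fit. Chi-square per degree of freedom between libraries was at least 10.4, above counting noise, and each library was counted as its own.

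Members, lists and tests were chosen with earlier results of these data known. Named were all members, the called genes of each pathway list or its 2 most abundant, defining markers, rows overlapping a member and rows nearest to Hes1 and Hes5. A further pathway list, 1 other pathway gene and 1 marker gene are not reported here. Rbpj, Adam10, Pofut1, Poglut1, Rfng, Cntn6, Notch4, Dlk2 and markers other than the defining ones were named after their values were seen.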

Additional observations from a re-analysis of the deposited data

How the results depend on the processing

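The count of members that fell was 1 under every setting but a minimum mean of 5 RPKM, where it was 0 because Hes1, at a mean of 3.55 RPKM, was not tested. The count that rose was 0 throughout. Signs turned with array weights for Notch2 (-0.094), Jag1 (-0.017) and Dner (0.040); the cause was not tested. Leaving out 1 library gave log2 changes of -0.035 to 0.12 for Notch2, -0.12 to 0.22 for Jag1 and -0.14 to 0.071 for Dner. Without a sign change, they also moved by over 1.5 times for Hes5 (0.12 to 0.35), Hey1 (-0.18 to -0.022), Notch3 (0.022 to 0.12), Dll1 (0.047 to 0.14), Hey2 (-0.13 to -0.025), Heyl (0.090 to 0.17), Jag2 (-0.18 to -0.0024), Dtx3 (0.00031 to 0.15) and Dll4 (-0.46 to -0.24), and none of these passed in any of them. Array weights called Cntn1 (adjusted p = 0.0390) and Fbxw7 (adjusted p = 0.0401). Hes1 against Hes5 shifted by -0.97 to -0.66 and against Hey1 by -0.61 to -0.35 without 1 library. Without the filter the whole table gave 935 calls of 32364 genes, against 1689 of 14710 with it.

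With the replicate number as a block, the log2 change of Hes1 was -0.60 (limma adjusted p = 0.0478) and that of Lfng -0.73 (adjusted p = 0.0320), while Furin (0.127), Crebbp (0.109), Bhlhe40 (0.0617) and Tle3 (0.121) lost their calls by adjusted p; over all genes the block gave 600 calls. The deviations of libraries that share a number correlated at 0.058, -0.24 and -0.075, and the number was not used for pairing. Hes5, Heyl and Hey2 rest on 44 to 181 reads per library, which limits their precision.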
